A study of Mus musculus with 2 samples.

Results

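Peaks of open chromatin at the promoters of long non-coding RNAs (lncRNAs) were examined in ATAC-seq peak lists of intestinal enteroids. ATAC-seq tags DNA that a transposase can reach, and a peak is a stretch with more tags than the background of the same library. Members were broad peaks within 1 kb of a transcript start of a lncRNA gene and over 1 kb from every start of a protein-coding gene (mouse assembly mm9, GENCODE annotation of that build). By this rule, 845 of 90445 control peaks and 710 of 71282 Taf4-inactivated peaks were members. They fell at 988 of 3845 annotated lncRNA genes. Of the 3845, 2854 had a start over 1 kb from every coding start, and the rule leaves out peaks close to coding starts. The annotation held 1273 genes of class lincRNA, 2572 of class processed_transcript and 0 of class antisense, since antisense is a transcript type there and lies mostly inside processed_transcript genes. Gene names are those of this annotation, with the RefSeq symbol in brackets where it differs.

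The enteroids are cultures of epithelium grown from the crypts of the ileum of mice aged 4 months, of strain C57Bl6/129sv. The control library, labelled WT, came from Taf4 lox/lox enteroids without Cre, and the Taf4-inactivated library, labelled KO, from Taf4 lox/lox::VilCreERT2 enteroids, in which the villin promoter limits the Cre to epithelial cells. Both were kept for 3 days in 1 µM 4-hydroxytamoxifen, so the agent was shared and the Cre was not. There was 1 library per genotype and hence no replicate error. No p-value was computed, intervals are exact 95% Clopper-Pearson or order-statistic intervals and cover counting error only, and a difference between lists compares 2 libraries. Fewer cells with an open promoter and a less open promoter per cell cannot be told apart in such a library.

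Start site peaks lay at 8 of 8 epithelial marker genes in both lists. By fold, Cdx2 stood at percentile 91.8 of the control and 94.6 of the Taf4-inactivated list, but Cdx1 at 9.74 and 0.679. Of 6 genes of other tissues, 4 had a peak in the control and 3 in the Taf4-inactivated list, among them Des at percentile 81.9 and 53.2. Ptprc, a marker of blood cells, and Acta2 had none in either. The share of all coding genes with such a peak was not computed, so these counts have no background beside them. The part of cells of other tissues in the results was not tested. Both lists also had a peak at the start of Taf4 itself (annotated as Taf4a), which does not bear on the deletion inside the gene. The files give no read totals. A background level that fits both the fold and the p was solved for each of the narrowest 10% of peaks of a list. The 5th percentile of these levels was 12.1 in the control and 7.35 in the Taf4-inactivated list. Their ratio of 1.65 served as an estimate of relative depth. Fold is relative to each library's own background, and strengths are therefore compared below as percentiles of fold within a list, with 100 the highest.

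Taf4 is a subunit of TFIID, the general factor that binds core promoters and nucleates the RNA polymerase II pre-initiation complex. Most lncRNAs are transcribed by the same polymerase from promoters with the same core elements, among them the TATA box and CpG-rich stretches, and many are spliced and capped. They include hosts of small RNAs, scaffolds of nuclear bodies, RNAs that silence genes in cis, and transcripts antisense to a coding neighbour.

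The promoters of 5 lncRNAs are shown because the comparisons below turn on them. 2610005L07Rik had the highest fold in both lists, Gm16348 the highest fold among control peaks without a partner, and Gm11844 the highest among Taf4-inactivated peaks without a partner. Gm2619 had the largest rank difference toward the control list, and Snhg5 the highest fold among hosts of small nucleolar RNAs. Each window runs from 250 bases before to 50 bases after the start site in the mm9 genome, 5′ to 3′ on the strand of the gene. Capitals mark matches on either strand to 10 motifs, spelled out with their frequencies further on.
2610005L07Rik, chr8:20020244-20020543, minus strand: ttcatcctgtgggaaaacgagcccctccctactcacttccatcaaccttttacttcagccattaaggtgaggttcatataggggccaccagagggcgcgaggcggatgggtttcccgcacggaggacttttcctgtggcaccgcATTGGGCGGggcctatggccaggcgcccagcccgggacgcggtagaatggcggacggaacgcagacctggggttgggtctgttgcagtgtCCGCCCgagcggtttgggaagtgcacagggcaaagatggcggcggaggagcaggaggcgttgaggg
Gm16348, chr8:42303244-42303543, plus strand: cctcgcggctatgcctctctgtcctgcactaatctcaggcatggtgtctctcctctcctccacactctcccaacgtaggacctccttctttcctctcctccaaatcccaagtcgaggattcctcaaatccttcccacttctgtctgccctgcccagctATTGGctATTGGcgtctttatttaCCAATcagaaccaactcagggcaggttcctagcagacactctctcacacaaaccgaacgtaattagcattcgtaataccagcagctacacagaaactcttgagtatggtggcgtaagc
Gm11844, chr4:14949479-14949778, plus strand: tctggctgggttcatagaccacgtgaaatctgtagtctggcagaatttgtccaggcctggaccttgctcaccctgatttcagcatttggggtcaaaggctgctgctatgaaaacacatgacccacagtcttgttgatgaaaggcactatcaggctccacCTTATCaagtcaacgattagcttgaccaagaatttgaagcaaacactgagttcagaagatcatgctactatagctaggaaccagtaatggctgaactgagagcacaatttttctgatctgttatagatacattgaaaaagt
Gm2619, chr1:85323832-85324131, minus strand: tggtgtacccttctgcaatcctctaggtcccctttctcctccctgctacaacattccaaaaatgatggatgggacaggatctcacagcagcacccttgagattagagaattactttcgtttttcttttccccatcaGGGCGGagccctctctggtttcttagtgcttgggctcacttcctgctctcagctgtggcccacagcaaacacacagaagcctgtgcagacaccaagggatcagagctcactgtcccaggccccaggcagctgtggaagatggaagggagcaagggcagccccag
Snhg5, chr9:88417672-88417971, minus strand: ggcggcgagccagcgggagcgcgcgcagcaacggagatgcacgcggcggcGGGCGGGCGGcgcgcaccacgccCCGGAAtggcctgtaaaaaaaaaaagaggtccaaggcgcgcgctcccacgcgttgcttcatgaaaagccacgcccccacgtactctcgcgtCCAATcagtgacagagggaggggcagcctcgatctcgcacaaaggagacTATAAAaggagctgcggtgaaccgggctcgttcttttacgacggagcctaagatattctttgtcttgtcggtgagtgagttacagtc
The Snhg5 window held 34 CpG dinucleotides and matches to 4 kinds of motif, with a TATA box between a CCAAT box and the start. The 2610005L07Rik window held 21 CpGs and 2 GC boxes, of which 1 shares bases with a CCAAT box, and no TATA box. Gm16348 had 3 CCAAT boxes within a short stretch and 9 CpGs. The windows of Gm11844 and Gm2619 held 2 CpGs each.

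By an overlap of 1 bp, the larger part of the lncRNA promoter peaks of each list had a partner in the other, while by an overlap of 50% of both peaks 40.0% of control and 47.6% of Taf4-inactivated members did. At 1 bp, of the 845 control members, 523 overlapped with a peak of the Taf4-inactivated list (61.9%, interval 58.5 to 65.2) and 322 did not (38.1%), where 52.7% of all control peaks had no partner. Of the 710 Taf4-inactivated members, 527 did so with a control peak (74.2%, interval 70.8 to 77.4) and 183 did not (25.8%), where 39.8% of all peaks of that list had none. The share with a partner lay between that of protein-coding start site peaks (81.6% of 17561 in the control and 89.7% of 15937 in the Taf4-inactivated list) and that of peaks away from any such start (38.8% of 72039 and 51.5% of 54635), and these intervals did not overlap.

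Sharing followed the strength of the peak. Among control members, 38 of 105 had a partner in the decile of lowest fold (36.2%) and 93 of 97 in that of highest fold (95.9%). In the Taf4-inactivated list the share went from 44 of 84 (52.4%) to 75 of 78 (96.2%). At the same decile, the share of lncRNA promoter peaks still lay between those of coding start site and distal peaks. In the highest decile of the control list the shares were 99.7% for coding and 94% for distal peaks, and in that of the Taf4-inactivated list 99.5% and 86.9%. In some deciles the member interval took in the distal share. Among them were the highest control decile (89.8 to 98.9) and the lowest (27.0 to 46.1, distal 31.1%). Which list shared the larger part of its members depended on the peaks admitted. When both lists were limited to a −log10 q of 5 or more, 92.2% of control but 50.2% of Taf4-inactivated members had a partner, although 98.4% and 93.8% of the same peaks had one among all peaks of the other list. Among the 40000 highest peaks of each list the shares were 67.8% and 64.6%.

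**Figure D1:**
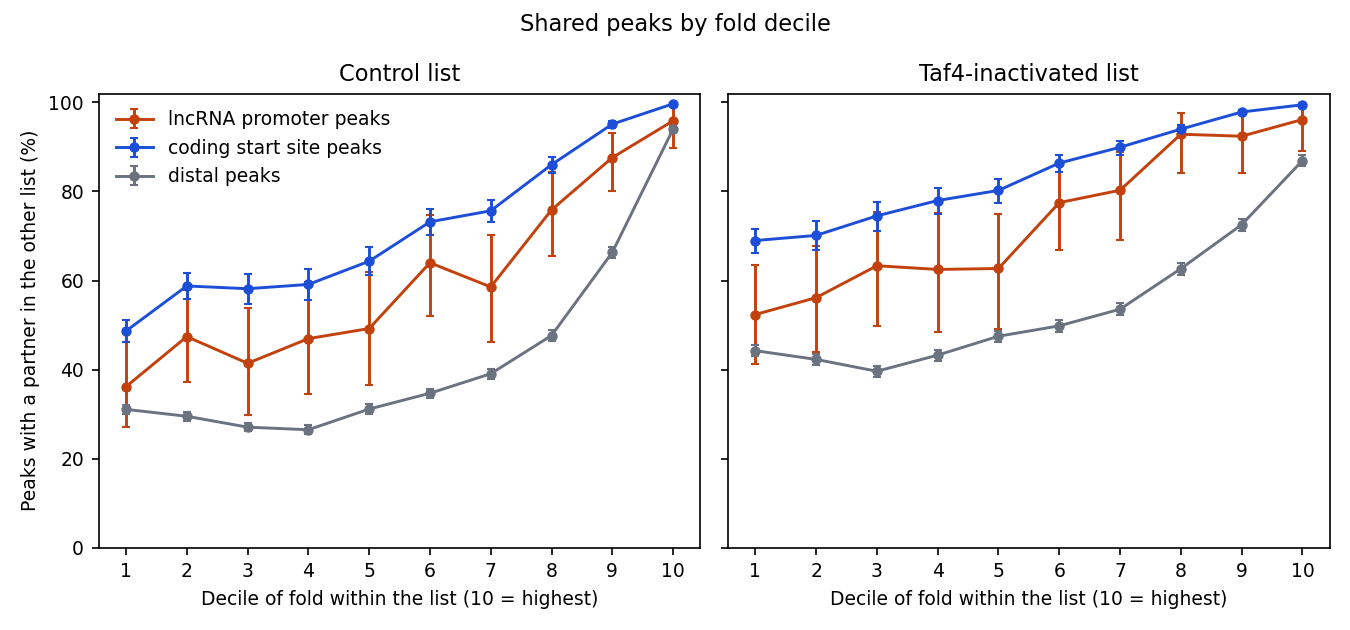
Share of peaks with a partner in the other list (vertical axis, %) against the decile of fold within the list (horizontal axis, 10 highest), for lncRNA promoter, coding start site and distal peaks. Points are shares and bars exact 95% intervals (counting error only); the lncRNA share climbs from 36.2% to 95.9% in the control and from 52.4% to 96.2% in the Taf4-inactivated list.

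Counted by gene, 527 of 988 lncRNA genes had a promoter peak in both lists (53.3%, interval 50.2 to 56.5), 286 in the control list only (28.9%) and 175 in the Taf4-inactivated list only (17.7%). Of the 527, the peaks overlapped at 500 and lay at different places near the gene's starts at 27. A peak in 1 list only was mostly weak: 190 of the 286 control-only genes and 124 of the 175 Taf4-inactivated-only genes had their highest peak under percentile 50, and 5 genes of each kind reached percentile 90. At 20 control-only and 20 Taf4-inactivated-only genes the other list did hold a peak near a start that the coding-distance rule left out. With both lists limited to a −log10 q of 2 or more the order of the lists turned, with 147 control-only and 158 Taf4-inactivated-only genes, and at 5 or more it was 12 against 129. A further 1712 lncRNA genes away from coding starts had no peak in either list.

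The classes of lncRNA genes differed in these counts and in the strength of their peaks. Control members had a median percentile of 66.0 at lincRNA and 46.3 at processed_transcript genes. In the Taf4-inactivated list these were 66.1 and 47.2. Genes of class lincRNA, some of which, such as Airn, have an antisense transcript, had a peak in both lists at 223 of 328 (68.0%, interval 62.6 to 73.0). Genes of class processed_transcript had one at 304 of 660 (46.1%). Genes with an antisense transcript, which run against a coding gene, had the lowest share of the transcript kinds at 150 of 347 (43.2%), and genes with an intergenic transcript had 246 of 438 (56.2%). Chromosomes 2, 4 and 11 held 411 of the 988 genes and 1524 of the 3845 annotated ones. There, 141 of 334 processed_transcript and 71.4% of 77 lincRNA genes were in both lists, against 163 of 326 and 66.9% of 251 elsewhere. Of 607 genes matched to a RefSeq entry by identifier or symbol, 59 are now protein-coding (47 in both lists, 8 control only, 4 Taf4-inactivated only), and without them the states were 479, 278 and 171 genes.

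**Figure D2:**
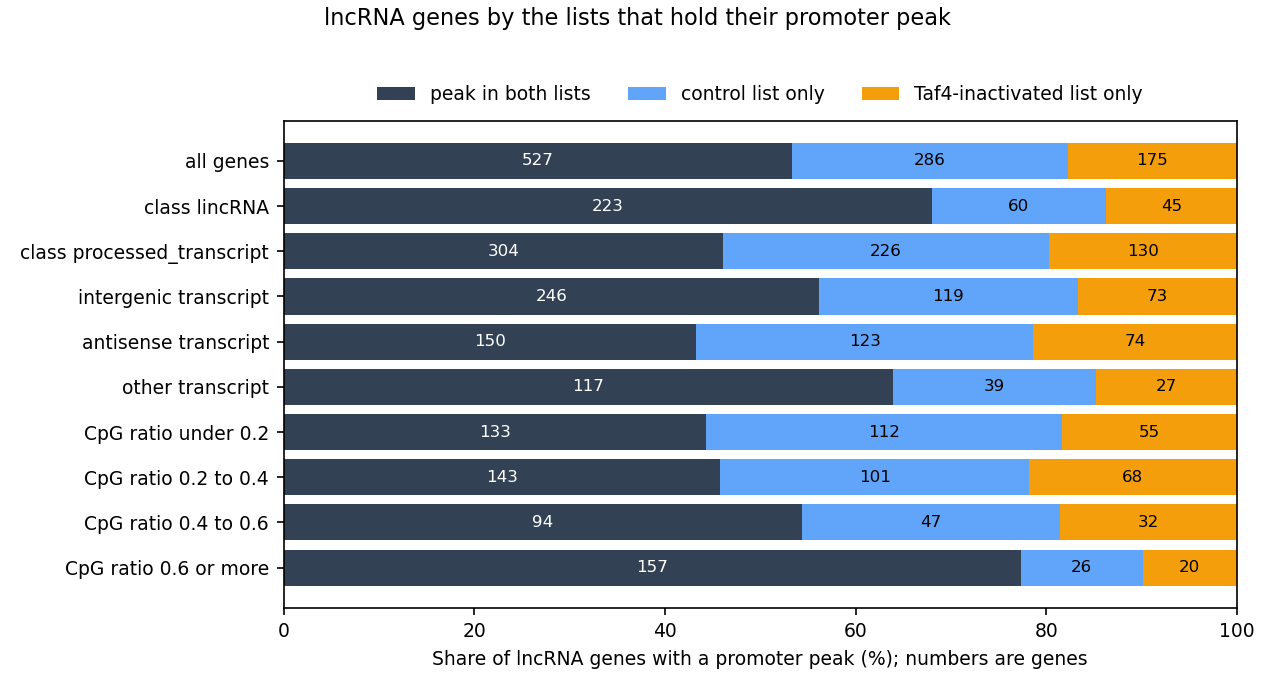
Share of lncRNA genes (horizontal axis, %) with a promoter peak in both lists, in the control list only or in the Taf4-inactivated list only, by class, transcript kind and CpG ratio of the promoter window; numbers in the bars are genes. The share in both lists is 53.3% over all 988 genes and 77.3% at CpG ratios of 0.6 or more.

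Sharing also went with CpG content, and so did the strength of the peak. The CpG ratio is the observed number of CpG dinucleotides over that expected from the base composition, and CpG islands have high values. Among genes whose 300-base window had a ratio under 0.2, 133 of 300 had a peak in both lists (44.3%), and at 0.6 or more 157 of 203 did (77.3%, with 26 control only and 20 Taf4-inactivated only). By the ratio of the peak itself, 47.7% of control members under 0.2 had a partner and 86.3% at 0.6 or more, and in the Taf4-inactivated list 60.3% and 89.3%. The median percentile of fold of these groups was 38.2 and 81.4 in the control and 41.9 and 73.1 in the Taf4-inactivated list. Whether CpG content went with sharing at equal strength was not tested. At low ratios the control members were shared about as often as coding start site peaks (45.8% under 0.2), while at 0.6 or more they were shared less often than those (97.0%, interval of the members 79.9 to 91.2). Peaks that covered the annotated start were shared more often than peaks beside it, with 333 of 451 (73.8%) against 190 of 394 (48.2%) in the control list and 321 of 398 (80.7%) against 206 of 312 (66.0%) in the Taf4-inactivated list. Peaks over the start were also stronger, with median percentiles of 64.9 against 40.9 in the control and 66.0 against 37.6 in the Taf4-inactivated list.

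Motif matches in the promoter windows differed in their order between the groups. The GC box (GGGCGG) was in 33.4% of windows of genes in both lists, 18.9% of control-only, 15.4% of Taf4-inactivated-only and 7.30% of lncRNA windows without a peak, beside 24.9% of all 3845 lncRNA and 43.4% of all 22380 coding windows. The ETS site (CCGGAA) was in 13.5%, 10.8%, 5.71% and 6.43% of the same groups, beside 11.1% and 17.5% of all lncRNA and coding windows. The TATA box (TATAAA) was in 9.11% of windows in both lists (interval 6.79 to 11.9), 7.69% of control-only and 14.9% of Taf4-inactivated-only windows (interval 9.94 to 21) and 16.4% of those without a peak, beside 11.9% of all lncRNA and 13.4% of all coding windows. The CCAAT box (CCAAT) was in 34.9%, 29.7% and 34.9% of the 3 groups with a peak and 38.5% of windows without one, beside 36.1% of all lncRNA and 37.9% of all coding windows.

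The remaining motifs, among them those of intestinal and signal-dependent factors, differed in frequency. Each was searched as the letters given, and a longer string has fewer matches by its length alone. The GATA site (GATAAG) was in 5.69% of windows in both lists, 10.8% of control-only and 8.0% of Taf4-inactivated-only windows and 9.75% of those without a peak, beside 7.26% of all lncRNA and 6.84% of all coding windows. The AP-1 site (TGANTCA) was in 8.54%, 6.64%, 8.57% and 9.52%, beside 7.65% and 6.93%, and the TCF site (CTTTGAT) in 4.36%, 3.85%, 2.86% and 5.26%, beside 4.03% and 3.47%. The HNF4 site (CAAAGTCCA) was matched in 1, 2, 3 and 3 windows of the same groups, beside 0.312% of all lncRNA and 0.456% of all coding windows. The CRE site (TGACGTCA) was in 1.90%, 1.4%, 1.14% and 0.759%, beside 1.51% and 2.32%, and the NRF1 site (GCATGCGC) in 1.90%, 1.75%, 1.14% and 0.759%, beside 1.85% and 3.30%. A match describes letters only and is not a bound site.

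Members were narrower than coding start site peaks and wider than distal ones. The median width was 725 bp in the control list (interval 678 to 767, quartiles 401 and 1114) and 659.5 bp in the Taf4-inactivated list (interval 622 to 738). Coding start site peaks had medians of 970 and 917 bp and distal peaks of 503 and 441 bp. Control members with a partner had a median of 819 bp and those without of 526.5 bp, and in the Taf4-inactivated list the medians were 786 and 375 bp. The other classes went the same way. Coding start site peaks had medians of 1069 and 543 bp in the control and 968 and 400 bp in the Taf4-inactivated list. Distal peaks had 639 and 432 bp, and 540 and 349 bp. Of the members of 2000 bp or more, 39 of 41 in the control list had a partner, beside 1333 of 1378 coding start site and 972 of 1248 distal peaks.

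**Figure D3:**
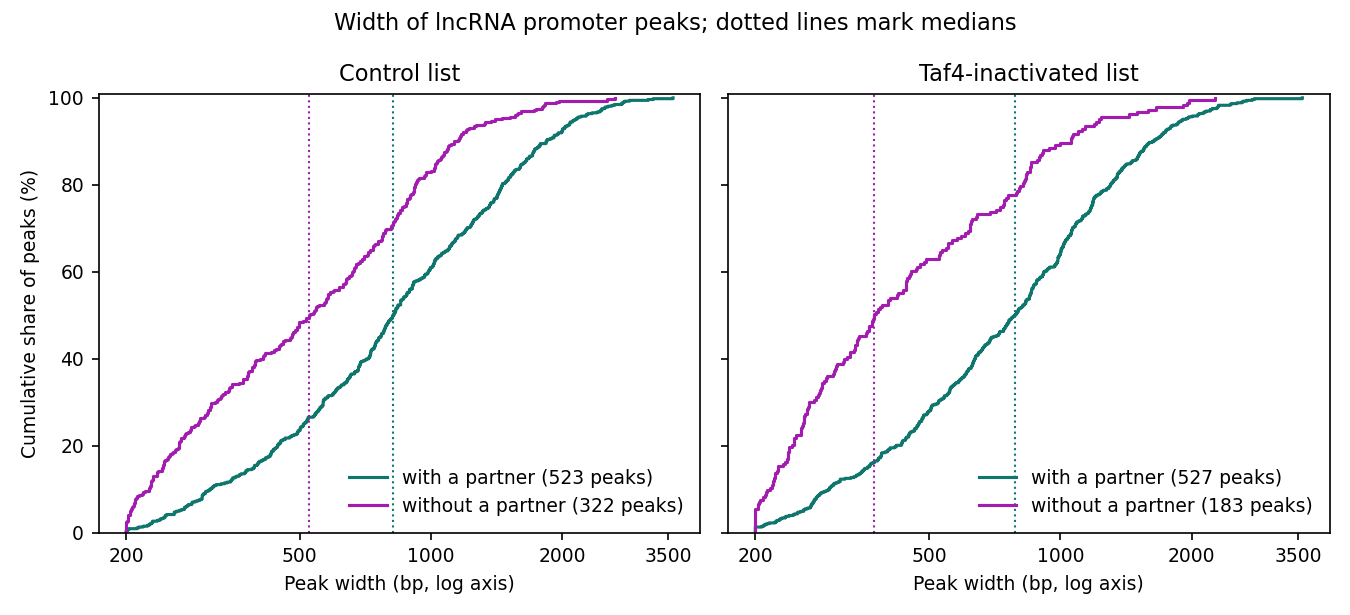
Cumulative share of lncRNA promoter peaks (vertical axis, %) against peak width (bp, log axis) for peaks with and without a partner in the other list; dotted lines mark the medians. Peaks without a partner lie to the left in both lists, with medians of 526.5 against 819 bp in the control and 375 against 786 bp in the Taf4-inactivated list.

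Some of the widest peaks had about the same width in both lists and others did not. Gm16862, on chromosome 17, had the widest peak of both lists at 3588 bp in the control and 3585 bp in the Taf4-inactivated list. C030014I23Rik had 2853 and 2673 bp. 9930038B18Rik had 3230 bp in the control and 1720 bp in the Taf4-inactivated list, and Gm13826 (Rpl37rt) had 3145 and 1351 bp. In the other direction, Gm14024 had 2782 bp in the Taf4-inactivated and 614 bp in the control list, and Btnl5 (Btnl5-ps) 2751 and 1233 bp. The control partner of Gm14024 lay over 1 kb from its start and was no member. The deposited fold is an average over the peak. Gm16862 stood at percentile 3.26 in the control and 16.6 in the Taf4-inactivated list, whereas the Taf4-inactivated peaks of Gm14024 and Btnl5 stood at 85.6 and 73.2.

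Where both lists had a peak at a lncRNA promoter, its rank mostly differed little. Of the mutually best overlapping pairs, 492 joined a member of each list. Their median rank difference (Taf4-inactivated minus control) was −2.64 percentile points (interval −4.77 to −1.21), beside −2.98 over all 42491 pairs. Ranked among pairs only, since the lists differ in length, it was −0.082 points (interval −2.08 to 1.30). The median size of the difference was 12.2 points, against 8.01 for coding start site pairs and 15.2 for distal pairs. Of the 492 pairs, 12 ranked higher in the Taf4-inactivated list by 50 points or more (2.44%), beside 2.22% of all pairs, and 15 ranked that much higher in the control list (3.05%), beside 3.2% of all pairs. Both shares were near the background. The counts were 9 and 6 when ranked among pairs only, 3 and 1 at a −log10 q of 2 or more and 0 and 0 at 5 or more. The Taf4-inactivated peak was narrower at 269 pairs, wider at 220 and equal at 3, with a median width ratio of 0.96 (interval 0.919 to 0.999). The narrower share was 54.7%, near the 55.6% of all pairs, whose median ratio was 0.951.

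**Figure D4:**
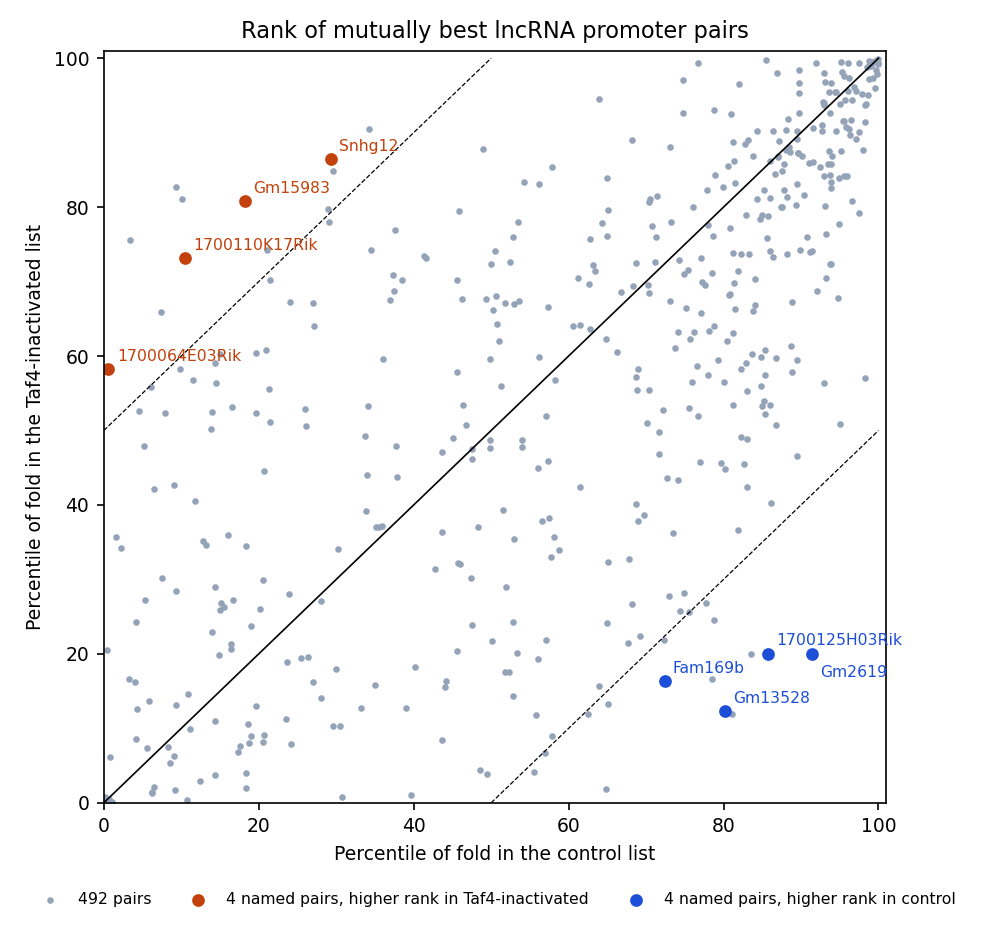
Percentile of fold in the Taf4-inactivated list (vertical axis) against that in the control list (horizontal axis) for 492 pairs of lncRNA promoter peaks; the solid line marks equal rank and dashed lines a difference of 50 points. Coloured points are the 4 named pairs in each direction among the pairs that overlap by 50% of both peaks; some unnamed pairs that overlap less lie farther out, and 12 and 15 pairs in all lie on or past the dashed lines.

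Among pairs that overlapped by 50% of both peaks, the largest gains in rank in the Taf4-inactivated list were at 1700110K17Rik, Gm15983, 1700064E03Rik and Snhg12. The 1700110K17Rik peak covered the start in both lists with similar widths of 1749 and 1622 bp, at a fold of 1.82 (percentile 10.5) in the control and 2.90 (percentile 73.1) in the Taf4-inactivated list. Gm15983 went from percentile 18.3 to 80.8. 1700064E03Rik, antisense beside Kdm6b and itself listed under Kdm6b in RefSeq, went from 0.601 to 58.3. The start of Snhg12, a host of small nucleolar RNAs, was at percentile 29.3 in the control and 86.4 in the Taf4-inactivated list, while a second peak further along the gene kept its place at 71.1 and 72.6. Ranked by −log10 p in place of fold, the 4 differences were 37.3, 22.5, 44.0 and 53.8 points. The control peaks of these pairs were weak, with −log10 q of 1.98, 2.60, 1.69 and 1.64, so only Gm15983 stays at a minimum of 2.

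In the other direction, Gm2619, Gm13528, 1700125H03Rik and Fam169b ranked higher in the control list. The Gm2619 peak had 752 bp in the control and 753 bp in the Taf4-inactivated list, with a fold of 2.64 (percentile 91.4) and 2.18 (percentile 19.9). Gm13528, an antisense RNA near Ralgps1, was at percentile 80.1 and 12.3, and the antisense RNA 1700125H03Rik at 85.8 and 20.0. Fam169b was at 72.4 and 16.3. By −log10 p these differences were −61.5, −62.0, −72.7 and −44.4 points. The direction was thus the same on both scales for all 8 named pairs. These pairs were picked for the largest rank differences by fold. Both scales describe the same peaks, so the shared direction is no independent check.

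The strongest lncRNA promoters were shared. 2610005L07Rik, on chromosome 8, had a fold of 4.93 (percentile 99.97) in the control and 6.50 (percentile 99.95) in the Taf4-inactivated list. Its nearest transcript is of pseudogene type and the peak had 2 near-identical copies elsewhere in the genome (95% identity over 90% of its length), and the authors kept only uniquely mapping reads. Gm15287, antisense and 28553 bp from the nearest coding start, that of Map3k1, had folds of 4.48 and 5.12. Gm12059 had 4.19 and 5.21, and Gm16719, near Insig1, a gene of sterol regulation, had 4.06 and 5.83, which placed it at percentile 99.8 in both lists. Has2as (Has2os), antisense to the hyaluronan synthase gene Has2, had 4.07 and 4.64. Of the 8 highest control members, 7 had a partner, and all 8 of the highest Taf4-inactivated members did.

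A few promoters high in the Taf4-inactivated list were lower in the control. Gm17683 was at percentile 99.8 (fold 5.80) there and at 85.5 (fold 2.41) in the control, with 2 near-identical copies of its peak. 4930547M16Rik had folds of 5.54 and 3.45, and 4930417H01Rik, near the zinc transporter gene Slc30a4, 5.36 and 3.58, with percentiles of 98.8 and 99.2 in the control. These last differed little in rank although they differed in fold. The median fold of all members was 2.05 in the control and 2.49 in the Taf4-inactivated list.

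Promoters strong in 1 list and without a partner in the other were few. Gm16348, whose promoter is printed above, had a control peak at chr8:42303185-42303960 with a fold of 3.85 (percentile 99.6) and −log10 q of 13.6, 2675 bp from the start of Fgl1, a gene of a liver-secreted fibrinogen-like protein. Among control members without a partner, Gm15283 followed at a fold of 2.70 (percentile 92.4), then Gm16255 at 2.67, Gm16867 at 2.61, Gm13718 (Btbd18) at 2.54, Vax2os1 (Vax2os) at 2.50, Gm9918 at 2.49 and Gm17691 at 2.44. Gm13718 had a further promoter peak that was paired, at percentile 86.4 in the control and 73.3 in the Taf4-inactivated list. Of these 8, the peaks of Gm16867, Vax2os1 and Gm17691 lay beside the start, at 889, 868 and 280 bp from it.

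In the Taf4-inactivated list, Gm11844 led the peaks without a partner, with a peak at chr4:14949398-14949783, a fold of 4.23 (percentile 95.5) and −log10 q of 10.97. It is antisense and lay 126325 bp from the nearest coding start. Gm11656, near the apolipoprotein gene Apoh, had a fold of 4.13 (percentile 94.8), 2310016D23Rik 3.72 (percentile 90.5) and Gm11184 3.68 (percentile 89.9). Gm16096 (3.58), Gm12610 (3.52), Gm13580 (3.34) and E230015J15Rik (3.20) followed, the last 47308 bp from the start of Egfr, which codes for the epidermal growth factor receptor. Gm16096 also had a paired peak, at percentile 51.8 in the control and 67.1 in the Taf4-inactivated list. The GC content of these 8 peaks ran from 42.2% to 50.2%, while that of the 8 control peaks without a partner ran from 50.1% to 67.7%. Over all members without a partner the median GC was 54.4% in the control and 51.2% in the Taf4-inactivated list, beside 56.0% and 55.9% for members with one. The other classes went the same way. Coding start site peaks without a partner had medians of 55.6% in the control and 53.2% in the Taf4-inactivated list. Distal peaks without a partner also had the lower median in the Taf4-inactivated list, so the difference was not particular to lncRNA promoters.

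Among lncRNAs of known function, 4 of 8 annotated hosts of small nucleolar RNAs had a member peak, each in both lists. Of all 3845 lncRNA genes, of which 2854 had a start over 1 kb from every coding start, 988 had a member peak. Of the 988, 53.3% were in both lists. The host genes carry small nucleolar RNAs, guides of ribosomal RNA modification, in their introns. Snhg5 had a fold of 3.19 (percentile 97.5) in the control and 5.27 (percentile 99.4) in the Taf4-inactivated list over 868 and 820 bp. Snhg7 was at percentile 21.1 in the control and 74.2 in the Taf4-inactivated list, and Snhg4 at 57.8 and 85.4. With both peaks of Snhg12, the 5 pairs at these 4 genes ranked higher by fold in the Taf4-inactivated list, by between 1.46 and 57.1 points. Of all pairs, 40.2% did. The gene list was chosen with earlier results of these data known, so this tally is a description and was not tested. By −log10 p the second Snhg12 pair differed by −1.58 points. Gas5, Snhg1, Snhg3 and Snhg9 had no member peak. Here and below, a gene without a member peak may still have a peak within 1 kb of a coding start, which the rule leaves out.

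Of 4 hosts of microRNAs, 2 had a peak in both lists and 2 in the control list only, where 28.9% of all member genes were control only. Mir17hg, precursor of a proliferation-linked microRNA cluster, had folds of 2.80 (percentile 93.9) and 3.25 (percentile 82.6) with peaks of 2209 and 2067 bp beside its start. Dleu2 had 2 promoter peaks in each list, at percentile 96.6 and 84.1 in the control and 80.8 and 70.3 in the Taf4-inactivated list. C130071C03Rik (fold 2.18, percentile 70.6) and Mirg (fold 2.01, percentile 46.8) had a peak in the control list only.

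Of 4 annotated RNAs that organise the nucleus, 3 had a peak in both lists, where 53.3% of all 988 member genes did. Miat had a weak control peak only (fold 1.78, percentile 6.12). 6720401G13Rik (Firre), an X-linked RNA that brings chromosomal loci together, had almost the same peak in both, 759 and 763 bp wide, at percentile 93.8 and 92.6. Malat1, a nuclear speckle RNA, was at 83.3 and 73.6, and its Taf4-inactivated peak reached the start while the control peak lay 446 bp from it. Neat1, the scaffold of paraspeckles, had wide peaks of low mean fold (1.83 and 1.85) with −log10 q of 6.15 and 6.07.

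At the X inactivation centre the lists placed the Xist peak differently. Xist, which coats the inactive X chromosome, had a Taf4-inactivated peak over its start (fold 2.29, percentile 35.0) that no control peak overlapped, and a control peak 955 bp from the start (fold 2.35, percentile 82.6). The control peak overlapped a Taf4-inactivated peak outside the 1 kb limit (fold 2.23, percentile 27.8). B230206F22Rik (Ftx), a neighbour of Xist in the same centre, had its highest peak at percentile 95.1 in the control and 99.5 in the Taf4-inactivated list, with folds of 2.90 and 5.36. Tsix had no member peak. The control list held 1 peak on chromosome Y and the Taf4-inactivated list 0, and the part of the animals' sex in the Xist peaks was not tested.

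Of 8 imprinted lncRNAs, Airn and Meg3 had a peak in both lists, Mirg in the control only and H19 in the Taf4-inactivated list only. Over all 988 member genes these states held 53.3%, 28.9% and 17.7%, and the 988 were among 3845 lncRNA genes. Airn, which silences Igf2r in cis, had peaks of 2437 and 2281 bp over its start at percentile 66.7 and 68.6. Meg3 had a peak over an internal start at percentile 50.1 in the control and 21.7 in the Taf4-inactivated list, and each list had another weak Meg3 peak without a partner. The H19 peak was 200 bp wide and at percentile 1.44. In the Hox clusters, 2 of 6 annotated RNAs had a member peak, beside the same shares over all member genes. 2700086A05Rik (Hoxaas3) was in both lists, at percentile 49.5 and 3.89. Hoxa11as (Hoxa11os) had a control peak only, at 17.6.

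All 6 members among 11 other regulatory RNAs, of which Meg3 is given above, were in both lists, where 53.3% of all 988 member genes were. 1700020I14Rik (Oip5os1), a deeply conserved RNA, kept its rank at percentile 96.1 and 95.5. Pvt1, beside the Myc gene, was at 92.9 and 84.2, with a peak of 1121 bp in the control and 542 bp in the Taf4-inactivated list. Six3os1 was at 7.51 and 30.2, and 2210408F21Rik at 20.6 and 8.18 at the start where both lists had a peak. Sox2ot had a peak at percentile 81.1 in the control that paired with one at 11.9, and at another start a Taf4-inactivated peak at 56.6 whose control partner was at 45.4. Dlx6os1, Dnm3os, Rmst, Tug1 and Gt(ROSA)26Sor had no member peak, which does not tell a missing peak from one left out near a coding start.

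**Figure D5:**
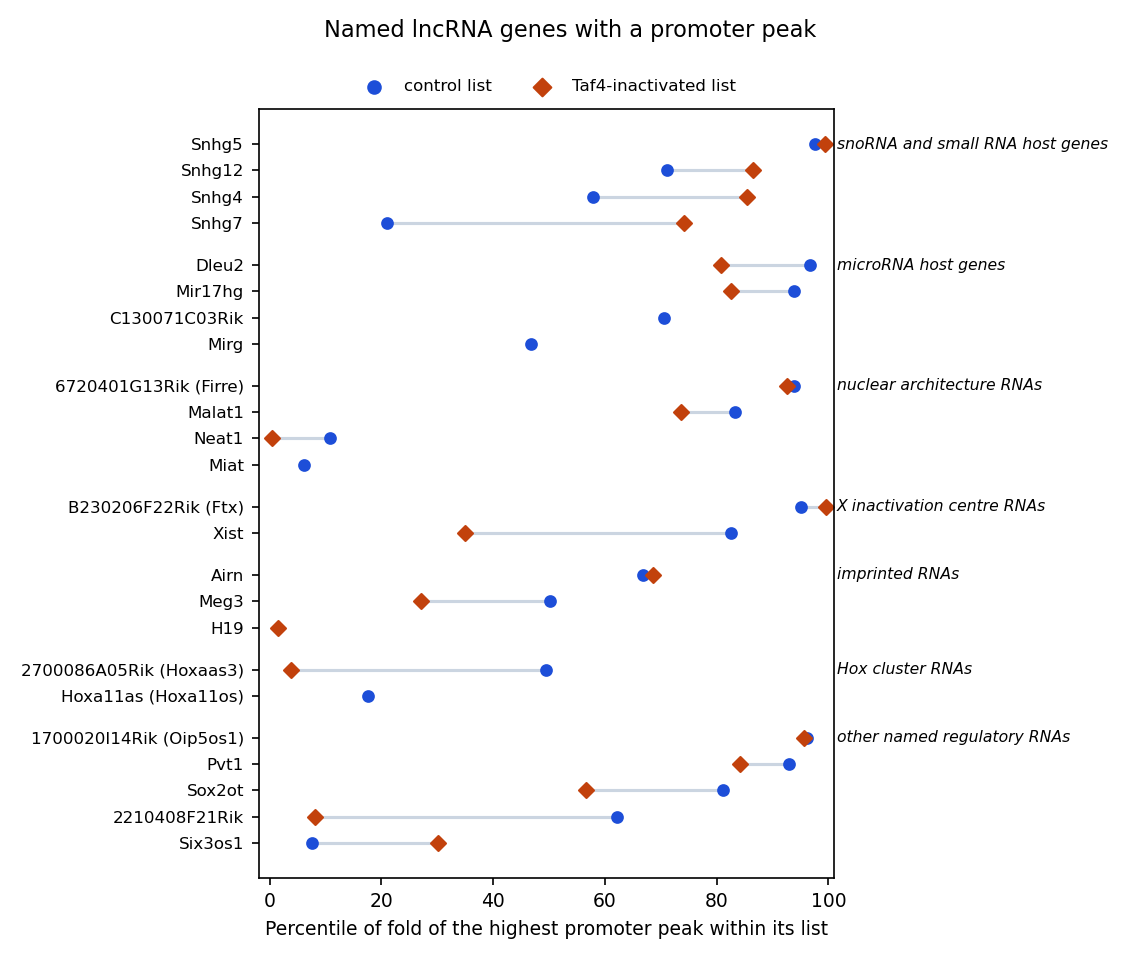
Percentile of fold of the highest promoter peak of each named lncRNA gene in the control list (circles) and the Taf4-inactivated list (diamonds), grouped by function; a missing symbol means no member peak in that list, and the highest peaks of the lists need not overlap. The 4 small nucleolar RNA hosts have the diamond to the right (pairs at these hosts are higher by 1.46 to 57.1 points), and Mir17hg and Dleu2 have it to the left.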

How the data were processed

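ATAC-seq profiled open chromatin in 1 control and 1 Taf4-inactivated enteroid library. The authors mapped uniquely placed reads to mm9 with Bowtie 1.0.0 after bcl2fastq 2.17.1.14 and called broad peaks per library with MACS2 2.1.1. The deposited lists give each peak a whole-number score (the −log10 q times 10, not used further), a fold ratio over that library's own background, and the −log10 of the p and q values as averages over the peak. No read totals were used, so the lists were not adjusted for depth, whose part in their length was not tested.

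Peaks were annotated with the GENCODE genes and genome of the same build. Peaks of the lists were paired by overlap of at least 1 bp, and ranks were percentiles of fold within a list. Near-identical copies were searched with minimap2 2.31. Calculations used Python 3.11.15, pandas 2.3.3 and scipy 1.17.1, and overlap, pairing and depth steps were tested on simulated data. The named RNAs were those of 7 functional lists, the 8 highest members and the 8 highest without a partner in each list, the 4 widest in each list, and, among pairs overlapping by 50% of both peaks, the 4 that differed most in rank each way. A peak was named for the nearest lncRNA start. The sequence of 1 promoter chosen by this rule is not reported here. Members, gene lists and marker genes were chosen with earlier results of these data known. Alternatives changed the q minimum, the number of peaks, the distances, the gene class, the overlap and the scale of rank.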

Additional observations from a re-analysis of the deposited data

How the results depend on the processing

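With −log10 q of at least 2 in both lists, control members numbered 485, genes in both lists 338 and control-only genes 147, the shares with a partner were 69.7% in the control and 68.3% in the Taf4-inactivated list, and the control median width was 779 bp. At 5 or more, members numbered 129 and 241, genes in both lists 119 and control-only genes 12, shares were 92.2% and 50.2%, and median widths 905 and 854 bp. Against all peaks of the other list, the shares of peaks at 5 or more were 98.4% and 93.8%. Among the 40000 highest peaks of each list, members numbered 398 and 421, genes in both lists 276 and control-only genes 125, and shares were 67.8% and 64.6%.

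Where the peak had to cover the start, members numbered 451 and 398, genes in both lists 282 and control-only genes 171, shares were 73.8% and 80.7%, and median widths 865 and 852.5 bp. Within 2 kb of the start, shares were 56.3% and 69.3% and widths 648.5 and 606 bp. For lincRNA genes alone, members numbered 299 and 274, the states were 223 both, 60 control only and 45 Taf4-inactivated only, shares were 74.2% and 82.1%, and widths 772 and 759 bp. With an overlap of 50% of both peaks, shares were 40.0% and 47.6%. Ranked among pairs only, the median rank difference was −0.082 points. Pairs 50 points higher in the Taf4-inactivated and in the control list numbered 12 and 15, and 9 and 6 ranked among pairs only, 6 and 6 where the peak covers the start, 8 and 2 for lincRNA genes, 7 and 6 with an overlap of 50%, and 0 and 0 among the 40000 highest. The median width without a partner ran from 458 to 725 bp in the control and from 373 to 598.5 bp in the Taf4-inactivated list, and with a partner from 785 to 914 and from 714 to 1061 bp. The remaining shares, states and numbers of members stayed inside their interval or within 1.5 times, among them those without near-identical copies, without pseudogene transcripts or without genes protein-coding in RefSeq, which were alternatives added after the data were seen. The fewer peaks of each stricter list shrink the counts by construction, and the cause of the other shifts was not tested.

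No paired analysis was possible because each genotype had 1 library. The part of depth in peaks without a partner was not tested. The lists hold no values below the peak threshold, so a missing peak is not an absence of open chromatin.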
